A study of Mus musculus with 6 samples.

Results

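Tcf7, Lef1, Bach2, Satb1, Id2, Id3, Bcl6, Tox and Myb encode transcription regulators tied to naive, memory, follicular helper or stem-like states of T cells. These 9 genes were chosen by name, with earlier results of these data known, and their rows are 9 of the 15106 genes in the deposited count table. They were measured by RNA sequencing in regulatory T cells (Tregs, the suppressive T cells that express FOXP3), with 4 libraries, and in effector T cells (Teffs), with 2 libraries. All 6 libraries came from T cells sorted out of the skin of mice aged 6 weeks, in which GFP reports FOXP3. The labels give neither the surface gate of the Teff sort nor whether libraries came from separate animals or pools, so p-values speak only of how far these libraries scatter, and some of that scatter may be technical.

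TCF-1, the product of Tcf7, and LEF-1 bind DNA through an HMG box, activate genes with beta-catenin and repress them with Groucho (TLE) proteins. TCF-1 is needed for T cell development in the thymus and marks naive, central memory and stem-like T cells, and many T cells lose it as they become effectors. BACH2, SATB1 and BCL6 restrain or organise other genes, ID2 and ID3 hold E proteins away from the E-box sites they bind, and TOX and MYB act in thymic development and in exhausted or long-lived T cells. Skin Tregs are mostly antigen-experienced cells that stay in the tissue.

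Tcf7 differed most among the 9 genes, and the start regions of Tcf7 and of Id2, the member with the highest level, are shown to place these genes. RefSeq (GRCm38.p6) gives 2 windows for Tcf7, which lies on the minus strand at chr11:52252371-52283014, and 1 for Id2 at chr12:25093799-25097140, also on the minus strand. Each window runs from 250 bases before a start site to 50 after it. Capitals mark matches to the E-box CANNTG, the kind of site from which ID2 keeps E proteins.
Tcf7, chr11:52282965-52283264, minus strand: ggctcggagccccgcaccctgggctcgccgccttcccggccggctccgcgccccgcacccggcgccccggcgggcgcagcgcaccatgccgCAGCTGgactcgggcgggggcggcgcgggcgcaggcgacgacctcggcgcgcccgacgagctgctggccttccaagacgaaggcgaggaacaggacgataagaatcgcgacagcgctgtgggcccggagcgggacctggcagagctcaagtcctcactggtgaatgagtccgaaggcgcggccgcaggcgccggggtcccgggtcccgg
Tcf7, chr11:52282546-52282845, minus strand: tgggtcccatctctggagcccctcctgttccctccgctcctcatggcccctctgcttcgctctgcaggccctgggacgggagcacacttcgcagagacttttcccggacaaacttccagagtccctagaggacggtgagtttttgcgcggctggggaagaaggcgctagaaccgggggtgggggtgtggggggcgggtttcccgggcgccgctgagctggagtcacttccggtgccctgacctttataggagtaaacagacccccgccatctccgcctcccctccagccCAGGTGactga
Id2, chr12:25096043-25096342, minus strand: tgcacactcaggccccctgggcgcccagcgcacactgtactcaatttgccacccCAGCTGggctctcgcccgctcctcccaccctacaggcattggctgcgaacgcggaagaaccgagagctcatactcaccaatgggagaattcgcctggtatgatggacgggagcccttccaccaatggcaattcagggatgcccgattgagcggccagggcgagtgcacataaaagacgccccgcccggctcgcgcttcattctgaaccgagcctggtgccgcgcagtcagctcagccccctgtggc
Each of these 3 windows holds 1 E-box match, as do 72.3% of the 32851 mouse windows in the same table, which have at least 1. The letters TCAAAG, the core of a TCF/LEF site, were searched on both strands and are in none of the 3 windows, against 16.0% of all windows. They occur once each in a Bach2 and a Bcl6 window, and at 2 places in 1 of the 4 Lef1 windows. GC content is 76.3% and 64.3% in the Tcf7 windows and 63.3% in the Id2 window.

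Counts in genes came to 5582022 to 7046685 in the Treg libraries and to 7468778 and 4902126 in the Teff libraries, so that a floor of 3 counts equals 0.397 to 0.581 CPM (gene counts scaled to library size). Foxp3, the gene behind the sort, was at 103 to 233 CPM in Tregs and at 11.3 and 7.17 CPM in Teffs. Markers shared by T cells (7 genes found of 8 listed) summed to 4398 to 8550 CPM in Tregs and to 7982 and 8562 CPM in Teffs. Treg 3 stood apart. Its 10 keratinocyte and hair follicle markers summed to 1513 CPM, against 21.3 to 29.0 CPM in the other Treg libraries and 256 and 92.3 CPM in Teff 1 and Teff 2. Its 9 dermal fibroblast markers summed to 3043 CPM, against 95.6 to 363 CPM in the other Treg libraries and 640 and 454 CPM in Teff 1 and Teff 2. Thy1, which T cells also express, made up most of the sum in the other Treg libraries. In Teff 1 Thy1 was 298 CPM of the 640, and in Teff 2 it was 446 CPM of the 454. Col3a1, a fibroblast collagen, was at 1448 CPM in Treg 3, at 0.713 to 1.76 CPM in the other Treg libraries, and at 89.6 and 0 CPM in the Teff libraries. Markers of CD8 T cells (Cd8a and Cd8b1) summed to 0.180, 12.8, 11.9 and 65.6 CPM in Treg 1 to Treg 4, against 142 and 93.6 CPM in Teff 1 and Teff 2, and Cd8a was at 0 in Treg 1, Treg 2 and Treg 3. The gamma-delta T cell markers found (3 of 9 listed: Cd163l1, Sox13 and Blk) were at 0 in all Treg libraries and summed to 21.2 and 21.7 CPM in Teffs.

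**Figure D1:**
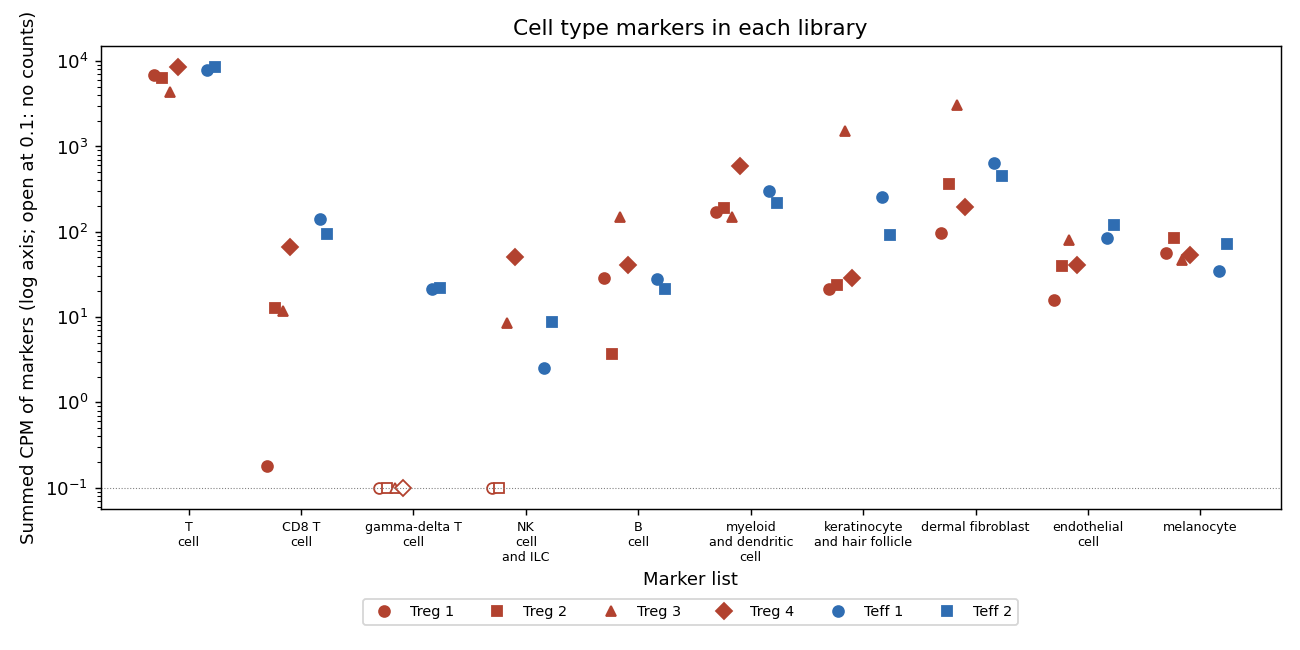
Summed CPM (log axis) of each list of cell type markers in the 4 Treg libraries (red, left) and the 2 Teff libraries (blue, right); open symbols at 0.1 mark sums of 0. Treg 3 stands above the other Treg libraries in keratinocyte (1513 CPM) and fibroblast (3043 CPM) markers, and CD8 and gamma-delta markers lie lower in every Treg library than in Teffs.

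All 9 genes passed the filter on low counts, Tcf7 and Satb1 through both Teff libraries and 2 of the 4 Treg libraries. In edgeR's quasi-likelihood test over 11775 genes, with p-values adjusted over all of them (Benjamini-Hochberg), 0 of the 9 passed at 0.05, where 0.0425% of all tested genes did. Unadjusted p was under 0.05 for 3 of the 9 (Tcf7, Tox and Id2), and for 557 of the 11775 tested genes. DESeq2 called 2 of the 9, Tcf7 and Tox, against 2.08% of the 10460 genes it gave an adjusted p. The authors' deposited table calls Tcf7 alone of the 9 at a false discovery rate under 0.05, against 0.285% of its genes. Foxp3, the gene behind the sort, had a log2 fold change of 4.19 ± 0.61 (SE). Its adjusted p was 0.131 in edgeR's test and 1.29e-12 in DESeq2, and its false discovery rate in the authors' deposited table was 0.00333. Missing the edgeR threshold is thus no evidence of equal levels. All 4 Treg libraries lay below both Teff libraries for 3 of the 9 (Tcf7, Satb1 and Id2) and above both for 2 (Tox and Myb). Over all tested genes these shares were 9.49% and 5.51%. The median log2 fold change of the 9 was 0.01, against 0.07 over all tested genes, so the 9 did not lie to 1 side.

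**Figure D2:**
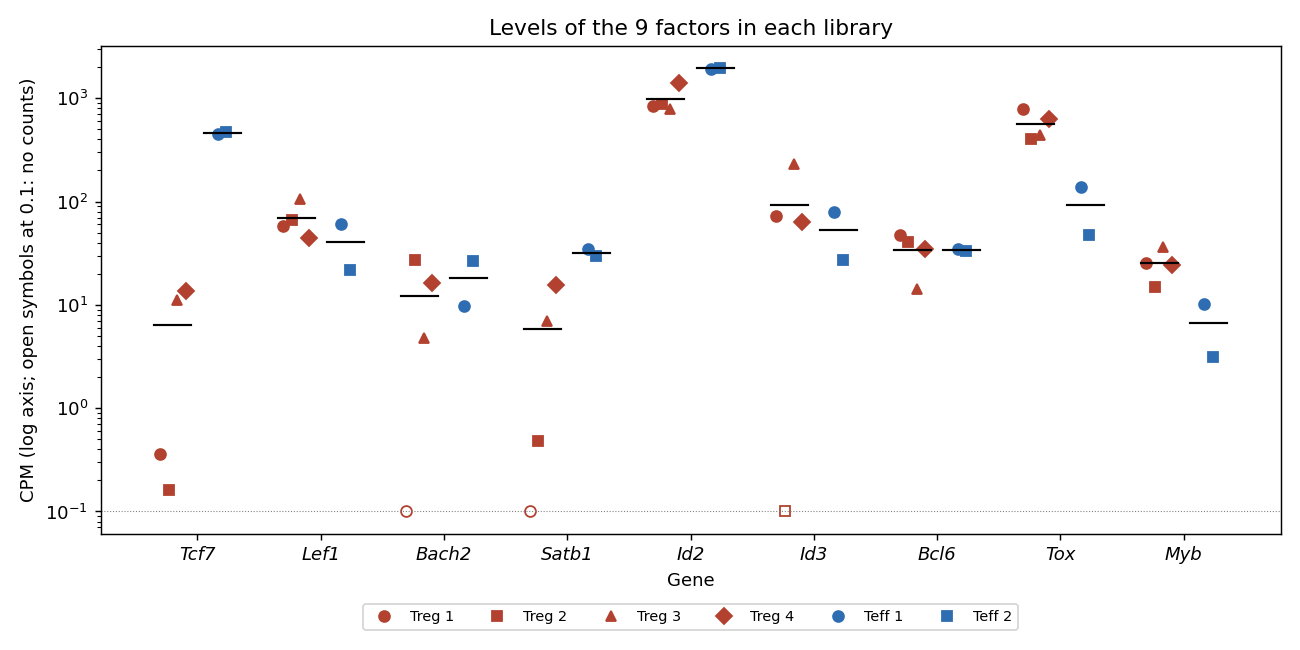
CPM (log axis) of each of the 9 genes in the 4 Treg libraries (red, left) and the 2 Teff libraries (blue, right), with bars at group means; open symbols at 0.1 mark a count of 0. Tcf7 lies at 0.160 to 13.7 CPM in Tregs and at 452 and 468 CPM in Teffs, and Tox lies the other way round, at 402 to 782 CPM in Tregs and 137 and 46.9 CPM in Teffs.

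Tcf7 was close to absent in Treg 1 and Treg 2, low in Treg 3 and Treg 4, and abundant in Teffs. It had 2, 1, 64 and 96 counts in Treg 1 to Treg 4, or 0.361, 0.160, 11.2 and 13.7 CPM, against 3418 and 2415 counts in Teff 1 and Teff 2, or 452 and 468 CPM. Both Teff libraries were nearly equal, all Treg libraries lay far below them, and the Treg libraries fell into a pair at or under the floor of 3 counts and a pair above 10 CPM. The log2 fold change, Treg over Teff, was -6.17 ± 1.39 (SE), with a 95% interval of -9.37 to -2.97, and 1.15% of tested genes had a fold change as low or lower. The adjusted p was 0.378 in edgeR's quasi-likelihood test (unadjusted p = 0.00215) and 0.000630 in DESeq2. In the authors' deposited table the log2 fold change of Tcf7 is -6.23, with a false discovery rate of 0.000211. The markers of CD8 and gamma-delta T cells, cells that can express Tcf7, lay on the same side, and their part in this difference was not tested. In bulk samples such as these, fewer cells that express a gene and less of its RNA per cell cannot be told apart.

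With each library left out in turn, the log2 fold change of Tcf7 ran between -6.89 (without Treg 4) and -5.76 (without Treg 2). Without Treg 3 and Teff 1, the libraries with the highest fibroblast marker sums in their groups, it was -6.61 ± 1.74 (edgeR adjusted p = 1); 1 Teff library is then left and is assumed to vary as the Treg libraries do. No exon of another annotated gene overlaps Tcf7.

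LEF-1 shares the HMG box and the partners of TCF-1, but Lef1 did not follow Tcf7. It was at 57.5, 66.6, 107 and 44.1 CPM over Tregs 1 to 4, against 60.1 and 21.9 CPM in Teffs 1 and 2. The groups overlapped, since Teff 1 lay above Treg 1 and Treg 4. The log2 fold change of Lef1 was 0.74 ± 0.72 (SE), with a 95% interval of -0.93 to 2.41, and it was 0.16 without Teff 2 and 1.63 without Teff 1. Per 100 counts of Lef1 a library held 0.627, 0.240, 10.5 and 31.1 counts of Tcf7 in Treg 1 to Treg 4 and 753 and 2140 in Teff 1 and Teff 2, a ratio within each library that no scaling between libraries can alter and that was chosen after the values were seen. The other TCF paralogs were sparse: Tcf7l2 was at 0, 0.160, 41.9 and 3.28 CPM over Tregs 1 to 4, against 7.15 and 5.04 CPM in Teffs. Its highest value fell in Treg 3, the library with the keratinocyte and fibroblast markers. Tcf7l1 was at 5.08 CPM in the Treg 3 library, 1.32 CPM in the Teff 1 library, and 0 elsewhere. Exons of an annotated gene on the other strand overlap 13.7% of the exonic bases of Lef1, and no source used here gives the strand setting of the counting.

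Tox, which encodes an HMG-box factor of thymic CD4 T cell development and of exhausted T cells, lay on the opposite side. It was at 782, 402, 438 and 628 CPM over Tregs 1 to 4, against 137 and 46.9 CPM in Teffs 1 and 2. Every Treg library was above both Teff libraries, and the Teff libraries differed from each other. Its log2 fold change was 2.61 ± 0.57 (SE), with a 95% interval of 1.30 to 3.93, and 4.36% of tested genes had one as high or higher. The adjusted p was 0.344 in edgeR's quasi-likelihood test (unadjusted p = 0.00179) and 0.000313 in DESeq2, and the authors' deposited table gives a log2 fold change of 2.54 and a false discovery rate of 0.146. Without Treg 3 and Teff 1 the log2 fold change was 3.69 ± 0.78 (edgeR adjusted p = 0.629, with the same assumption for the 1 Teff library left), and over single libraries left out it ran between 2.02 without Teff 2 and 3.58 without Teff 1. Tox4, a broadly expressed paralog, was even, at 121 to 271 CPM in Tregs and 162 and 129 CPM in Teffs (log2 fold change 0.33 ± 0.44). Tox2, a paralog tied to follicular helper cells, was at 0, 0, 7.19 and 3.71 CPM over Tregs 1 to 4, against 0.927 and 0.581 CPM in Teffs.

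Within a library, Tcf7 and Tox stood in opposite order in the Treg and Teff groups. Per 100 counts of Tox there were 0.0461, 0.0398, 2.56 and 2.18 counts of Tcf7 in Treg 1 to Treg 4, against 330 and 998 in Teff 1 and Teff 2. Each Treg library held more Tox than Tcf7 counts, and each Teff library more Tcf7 than Tox counts. Counts of different genes also depend on gene length, but the order was the same in every library per kilobase of merged exons. This pair was chosen after the values were seen, as the lowest and highest log2 fold changes among the listed factors. A shift of their ratio between the groups follows from that choice and is no separate result.

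**Figure D3:**
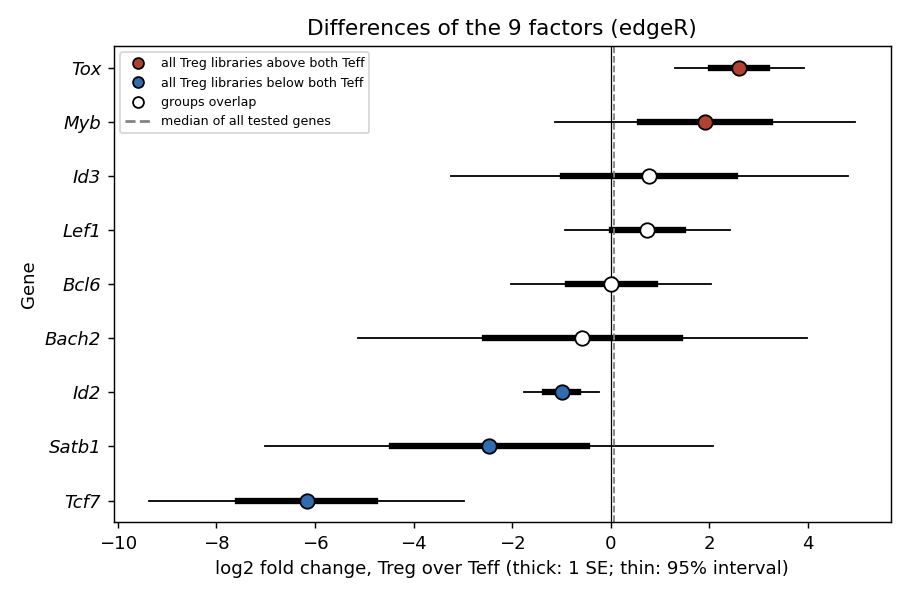
Log2 fold change, Treg over Teff, of the 9 genes in edgeR, with 1 SE (thick) and the 95% interval (thin); point colour shows whether the groups overlap and the dashed line is the median of all tested genes, 0.07. Tcf7 (-6.17) and Tox (2.61) lie at opposite ends, and among the 9 the intervals of Tcf7, Id2 and Tox leave out 0.

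ID2 and ID3 have no DNA-binding region of their own and act by pairing with E proteins, ID2 more in effector and tissue cells and ID3 more in naive, memory and stem-like ones. Id2 was at 837, 884, 783 and 1392 CPM over Tregs 1 to 4, against 1925 and 1956 CPM in Teffs 1 and 2. All Treg libraries lay below both Teff libraries, with Treg 4 nearest to them. This gave a log2 fold change of -0.99 ± 0.33 (SE), with a 95% interval of -1.75 to -0.24. The adjusted p of Id2 was 0.721 in edgeR's quasi-likelihood test (unadjusted p = 0.0166) and 0.147 in DESeq2, and with each library left out its log2 fold change ran between -1.22 and -0.90.

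Id3 was uneven. It was at 72.3, 0, 233 and 62.9 CPM over Tregs 1 to 4, against 79.4 and 27.3 CPM in Teffs 1 and 2. Treg 2 had no count of Id3 among 6289509, which by counting error alone allows up to 0.59 CPM (95% interval), while Treg 3 had the highest level. Its log2 fold change was 0.78 ± 1.74 (SE), with a 95% interval of -3.24 to 4.81, and it was -0.23 without Treg 3, 0.16 without Teff 2 and 1.73 without Teff 1. Keratinocyte and fibroblast markers were also highest in Treg 3, and their part in Id3 was not tested. Id1, a paralog, passed the filter on low counts through the Teff libraries alone, so it could enter the test only as lower in Tregs. It was at 0, 0.160, 0.526 and 0 CPM over Tregs 1 to 4, against 7.94 and 3.10 CPM in Teffs, all Treg values below both Teff values (log2 fold change -4.86 ± 2.14, edgeR adjusted p = 1). The E proteins they bind, Tcf3, Tcf4 and Tcf12, were all tested, 0 passed in either direction, and their groups overlapped. Tcf12 was at 47.8, 25.4, 113 and 49.1 CPM over Tregs 1 to 4, against 106 and 68.4 CPM in Teffs, and Tcf4 was at 30.5, 0, 103 and 95.7 CPM in Tregs and at 48.1 and 40.7 CPM in Teffs.

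Satb1, which encodes a chromatin organiser that FOXP3 is known to repress in Tregs, came nearest to Tcf7 among the other listed factors in its pattern over the libraries. Its gap between the groups was smaller. It was at 0, 0.480, 7.01 and 15.7 CPM over Tregs 1 to 4, against 34.6 and 29.5 CPM in Teffs 1 and 2. As with Tcf7, Treg 1 and Treg 2 lay at or under the floor, Treg 3 and Treg 4 above it, and both Teff libraries above all of them. Its fold change of -2.46 ± 1.97 (log2, SE), with a 95% interval of -7.01 to 2.09, did not pass (edgeR adjusted p = 1, unadjusted p = 0.248), and it was -3.69 without Treg 4.

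Bach2, a repressor of effector genes that supports Treg formation, had no clear difference. It was at 0, 27.4, 4.73 and 16.4 CPM over Tregs 1 to 4, against 9.66 and 26.6 CPM in both Teff libraries, with the full span of values inside Tregs. Its log2 fold change was -0.58 ± 1.98 (SE), the interval ran from -5.14 to 3.98, and it was 0.31 without Teff 2 and -1.36 without Treg 2. Bach1, its paralog, was at 0.361, 28.8, 8.06 and 11.98 CPM over Tregs 1 to 4, against 14.0 and 6.98 CPM in Teffs. Exons of the antisense gene Bach2os overlap 5.40% of the exonic bases of Bach2. Other annotated genes overlap 6.26% of the exonic bases of Myb, 3.42% of Tox, 1.49% of Satb1 and 0.313% of Bcl6. Of these, only Satb1 has an overlapping gene on its own strand.

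Bcl6, the repressor that directs follicular helper T cells and opposes Blimp-1, was level between the groups. It was at 47.6, 40.3, 14.2 and 35.1 CPM over Tregs 1 to 4, against 34.7 and 33.3 CPM in Teffs 1 and 2. Treg 3 was lowest and the other Treg libraries lay above both Teff libraries. The log2 fold change was 0.01 ± 0.88 (SE), with a 95% interval of -2.02 to 2.04, and its sign depended on the setting.

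Myb, known for progenitor and effector-Treg programmes, was at 25.3, 15.04, 36.3 and 24.3 CPM over Tregs 1 to 4, against 10.2 and 3.10 CPM in Teffs 1 and 2. Myb was thus higher in each of the 4 Tregs than in either Teff library. The log2 fold change was 1.92 ± 1.32 (SE), with a 95% interval of -1.13 to 4.96 (edgeR adjusted p = 1, unadjusted p = 0.185). It was 3.001 without Teff 1 and 1.27 without Teff 2. Mybl1, a paralog of germ cells and some lymphocytes, went uncounted in Tregs and had 35 counts over both Teff libraries. It passed the filter on low counts through the Teff libraries alone, so it could enter the test only as lower in Tregs. With a floor of 3 counts over the group, counting error alone would put it at least 22.5-fold lower in Tregs. The 95% interval of its log2 fold change, which takes in the scatter between libraries, ran from -12.6 to -1.80 (edgeR adjusted p = 0.721). Mybl2, a paralog of dividing cells, was at 0, 0, 21.4 and 4.14 CPM over Tregs 1 to 4, against 0.662 and 6.98 CPM in Teffs.

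Levels can be compared between genes only per length, here as CPM per kilobase of merged exons (GENCODE M21, GRCm38). In Tregs the mean order was Id2 at 399.5 ± 115 (SD, n = 4), Tox at 74.0 ± 23.2, Id3 at 51.4 ± 55.4, Lef1 at 7.82 ± 3.06, Bcl6 at 5.12 ± 2.14, Myb at 2.82 ± 0.974, Tcf7 at 2.42 ± 2.71, Bach2 at 1.22 ± 1.24 and Satb1 at 0.305 ± 0.385. Only Id2 was separate from its neighbour in that order, since the Treg libraries of every later pair of neighbours overlapped. In Teffs the order was Id2 at 796 ± 8.81 (SD, n = 2), Tcf7 at 175 ± 4.19, Id3 at 29.8 ± 20.6, Tox at 12.1 ± 8.38, Bcl6 at 5.08 ± 0.143, Lef1 at 4.67 ± 3.07, Bach2 at 1.82 ± 1.201, Satb1 at 1.68 ± 0.189 and Myb at 0.744 ± 0.561. Neighbours overlapped there for Id3 and Tox, Bcl6 and Lef1, Lef1 and Bach2, and Bach2 and Satb1. Tcf7 thus ranked 7 of 9 in Tregs and 2 of 9 in Teffs, and these ranks of Tcf7 were the same with the longest transcript as the length.

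The genes most like each member were found by the root mean square difference of log2 CPM over the 6 libraries, each gene centred on its own mean, among 5736 genes with at least median expression. For Tcf7 they were Pde7a (difference 1.13), Fam213a (1.38), St3gal6 (1.56), Wdr18 (1.87), Fem1a (1.94) and Themis (2.03). Pde7a, a phosphodiesterase that degrades cyclic AMP, was at 0, 0.800, 8.06 and 50.5 CPM over Tregs 1 to 4, against 208 and 382 CPM in Teffs. St3gal6, a sialyltransferase, was at 0, 0, 0 and 8.28 CPM over Tregs 1 to 4, against 173 and 121 CPM in Teffs. Themis, a T cell receptor signalling protein of thymic selection, was at 21.3, 0, 28.0 and 18.5 CPM over Tregs 1 to 4, against 296 and 252 CPM in Teffs. Of these 6 genes, all but Fem1a had every Treg library below both Teff libraries, against 9.49% of all tested genes. This follows from choosing them for their likeness to Tcf7 and is no separate result.

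For Tox the nearest genes were Alox8 (0.182), Ecm1 (0.321) and Prdm4 (0.349), each with every Treg library above both Teff libraries. The share over all tested genes was 5.51%, and this side too follows from the choice. Ecm1, a secreted matrix protein that T cells also make, was at 279, 145, 109 and 155 CPM over Tregs 1 to 4, against 29.5 and 17.6 CPM in Teffs. For Id2 they were Sh3bgrl3 (0.122), Exosc9 (0.138) and Litaf (0.147), for Bcl6 Glipr2 (0.106), St6galnac4 (0.124) and Sla2 (0.130), and for Lef1 Nfkbia (0.230), Irak1 (0.277) and Scd2 (0.292). For Myb they were Plin2 (0.387), Lancl1 (0.396) and Arl4a (0.407), for Bach2 Rnf145 (0.390), Rbm38 (0.534) and Pik3r4 (0.539), for Id3 Il1rap (0.470), Umps (0.476) and Mcfd2 (0.581), and for Satb1 Rnf19b (0.564), Elp3 (0.628) and Wdr18 (0.742). Among the 9 themselves the closest pairs were Tox with Myb (0.551), Lef1 with Myb (0.680) and Id2 with Bcl6 (0.685), while Tcf7 was nearest to Satb1 (1.81) and farthest from Tox (5.16). All of these likenesses are over the same 6 libraries, share their depth and composition, and are descriptions.

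Genes around these factors were read from lists. Across the 7 lists edgeR's adjusted test passed 0 genes in either direction, and it did not pass Foxp3 either. The counts at an unadjusted p under 0.05 in edgeR and the calls of DESeq2 are given with each list. Over all genes, unadjusted p was under 0.05 for 557 of 11775 tested, and DESeq2 called 2.08%. The 4 Tregs were all above both Teffs for 5.51% of all tested genes and below both for 9.49%. Of the 12 paralogs of the 9 genes 7 were tested, the median log2 fold change was 0.33, 0 lay above and 2 below in this way (Id1 and Mybl1), unadjusted p was under 0.05 for 1, and DESeq2 called 0. Id1 and Mybl1 passed the filter on low counts through the Teff libraries alone, so their side follows from the filter. The 3 E proteins had a median of 0.37, with 0 under an unadjusted p of 0.05 and 0 called by DESeq2. In the list of beta-catenin, Groucho and other TCF cofactors and targets, 11 of 14 genes were tested, edgeR passed 0 in either direction (0.0425% of all genes did), unadjusted p was under 0.05 for 0, DESeq2 called 0, and the median log2 fold change was 0.04. Ctnnb1, which encodes beta-catenin, was at 131 to 495 CPM in Tregs and 334 and 183 CPM in Teffs. Axin2, a known target of beta-catenin with TCF factors, was at 23.3, 60.5, 30.0 and 41.7 CPM over Tregs 1 to 4, against 32.0 and 83.0 CPM in Teffs. Pygo2, a beta-catenin coactivator, was at 3.07, 121, 107 and 33.7 CPM over Tregs 1 to 4, against 13.2 and 45.2 CPM in Teffs. Aes, a short Groucho-family protein, was at 14.1, 58.6, 13.8 and 30.8 CPM over Tregs 1 to 4, against 33.6 and 54.1 CPM in Teffs. The groups overlapped for Ctnnb1, Axin2, Pygo2 and Aes. Bcl9, a beta-catenin coactivator, was at 0, 0.800, 6.84 and 0 CPM over Tregs 1 to 4, against 22.9 and 20.2 CPM in Teffs, and was the 1 gene of the list whose groups did not overlap (log2 fold change -3.48 ± 2.35, edgeR adjusted p = 1).

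Among 15 naive and recirculation genes, all tested, edgeR passed 0, unadjusted p was under 0.05 for 4, DESeq2 called 1 (Cd27, higher in Tregs, adjusted p = 3.37e-10), and the median log2 fold change was 0.59. In 3 of them the 4 Tregs were all above both Teffs and in 2 below. S1pr1, the receptor by which T cells leave tissue, was at 116, 49.9, 45.8 and 50.1 CPM over Tregs 1 to 4, against 171 and 140 CPM in Teffs (log2 fold change -1.25 ± 0.54). Il7r, the IL-7 receptor chain, was at 1443, 676, 1036 and 827 CPM over Tregs 1 to 4, against 405 and 482 CPM in Teffs (1.17 ± 0.40). Cd27, a costimulatory receptor of the TNF receptor family, was at 302 to 630 CPM in Tregs and 62.5 and 33.1 CPM in Teffs. Ccr7, a lymph node homing receptor often expressed with Tcf7, overlapped between groups, at 28.0 to 135 CPM in Tregs and 54.9 and 46.9 CPM in Teffs, and was chosen for mention after its values were seen.

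Among effector and terminal differentiation factors 14 of 15 were tested, edgeR passed 0, unadjusted p was under 0.05 for 6, and the median log2 fold change was 0.80. DESeq2 called 2, both higher in Tregs, Ikzf2 (adjusted p = 4.37e-12) and Nfil3 (adjusted p = 0.00873). In every Treg library 6 lay higher and 2 lower than in both Teff libraries. Ikzf2, the factor Helios, was at 1966 to 3716 CPM in Tregs and 89.6 and 9.50 CPM in Teffs (5.86 ± 0.99). Nfil3, a basic leucine zipper factor, was at 72.6 to 205 CPM in Tregs and 22.4 and 28.1 CPM in Teffs (2.32 ± 0.64). Tbx21, the Th1 factor T-bet, was at 2.45 to 28.5 CPM in Tregs and 51.5 and 103 CPM in Teffs (-2.33 ± 1.02). Prdm1, which encodes Blimp-1 and was added here as the known opponent of Bcl6, was at 515, 164, 243 and 123 CPM over Tregs 1 to 4, against 102 and 62.4 CPM in Teffs, all Treg libraries above both Teff libraries (1.67 ± 0.66, edgeR adjusted p = 0.925).

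Among follicular helper genes 10 of 12 were tested, edgeR passed 0, unadjusted p was under 0.05 for 3, DESeq2 called 1 (Cd40lg, lower in Tregs, adjusted p = 0.0110), and the median log2 fold change was -0.63. The 4 Tregs were all above both Teffs for 2 and below for 2. Cd40lg, the helper ligand for B cells, was at 16.5 to 160 CPM in Tregs and 670 and 765 CPM in Teffs (-3.17 ± 0.75). Il6st, the shared receptor chain gp130, was at 53.9 to 281 CPM in Tregs and 33.9 and 6.20 CPM in Teffs (2.86 ± 0.96), and Icos, a costimulatory receptor, at 2888 to 5443 CPM in Tregs and 1753 and 2052 CPM in Teffs (1.10 ± 0.35).

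Among stem-like and exhausted T cell genes 13 of 14 were tested, edgeR passed 0, unadjusted p was under 0.05 for 7, and the median log2 fold change was 0.51, also with the 2 genes without counts in Tregs at their bound. DESeq2 called 3, Tigit (adjusted p = 2.09e-11) and Havcr2 (adjusted p = 2.24e-07) higher and Cx3cr1 (adjusted p = 0.000117) lower in Tregs. The 4 Tregs were all above both Teffs for 4 and below for 3. Among the 3 below, Cx3cr1 and Xcl1 had no counts in Tregs and passed the filter on low counts through the Teff libraries alone, so their side follows from the filter. Inhibitory receptors of exhausted cells were split. Tigit was at 463 to 1240 CPM in Tregs and 54.1 and 78.7 CPM in Teffs (3.72 ± 0.54), and Havcr2, which encodes TIM-3, at 120 to 365 CPM in Tregs and 23.6 and 15.5 CPM in Teffs (3.56 ± 0.62). Entpd1, the ectonucleotidase CD39, was at 22.6 to 95.6 CPM in Tregs and 21.6 and 9.50 CPM in Teffs (2.29 ± 0.89). Lag3, another inhibitory receptor, was low and overlapped, at 0.160 to 11.2 CPM in Tregs and 2.25 and 0 CPM in Teffs. Pdcd1, which encodes PD-1, was at 65.3, 64.0, 151 and 125 CPM over Tregs 1 to 4, against 126 and 83.1 CPM in Teffs (-0.05 ± 0.54). Cd244 (0.06 ± 2.44) and Btla (-0.59 ± 0.88), receptors that can also inhibit T cells, overlapped as well. Slamf6, a surface receptor often paired with TCF-1 in stem-like cells, was at 168, 123, 74.3 and 124 CPM over Tregs 1 to 4, against 104 and 52.7 CPM in Teffs (0.64 ± 0.53). Xcl1, a chemokine of stem-like and innate-like T cells, went uncounted in Tregs, against 12.97 and 7.95 CPM in Teffs, at least 89.3-fold lower with the same floor. Lag3, Pdcd1, Cd244, Btla, Slamf6 and Xcl1 were named after their values were seen.

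**Figure D4:**
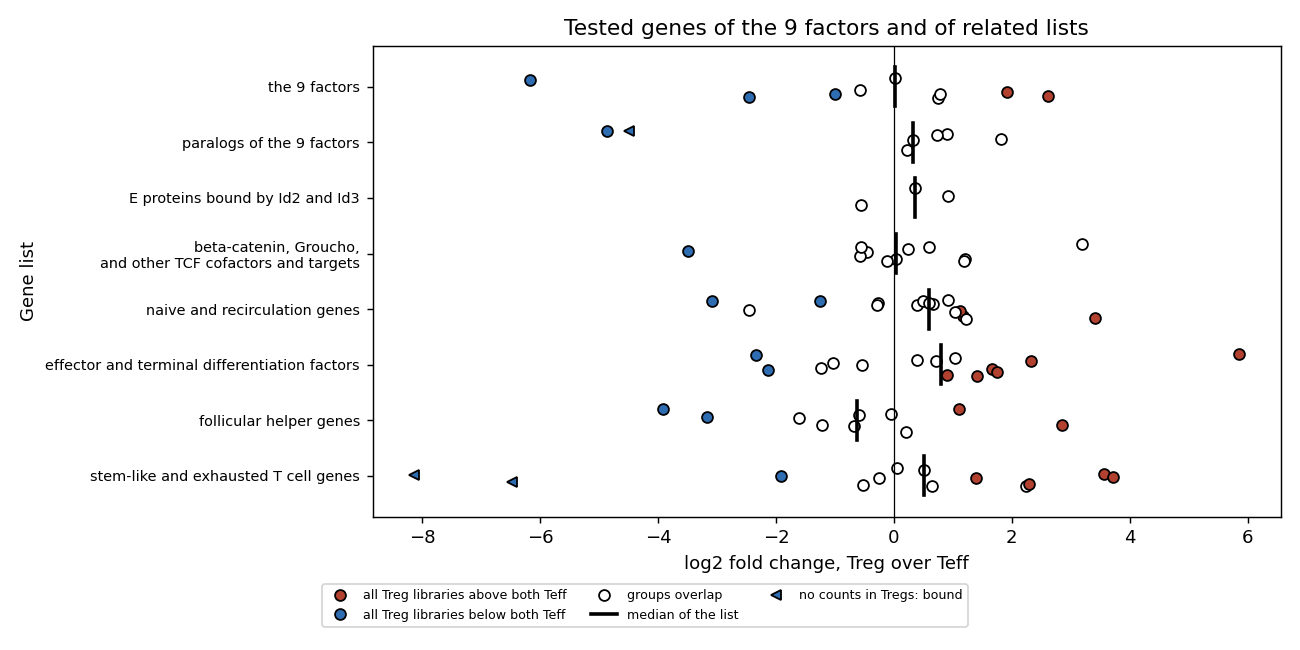
Log2 fold change, Treg over Teff, of every tested gene among the 9 factors and in the 7 related lists, with the median of each list as a bar. Triangles are bounds, covering counting error alone, for genes without counts in Tregs, which passed the filter through the Teff libraries alone. Medians run from -0.63 (follicular helper genes) to 0.80 (effector and terminal differentiation factors), and every list holds genes on both sides of 0.

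**Figure D5:**
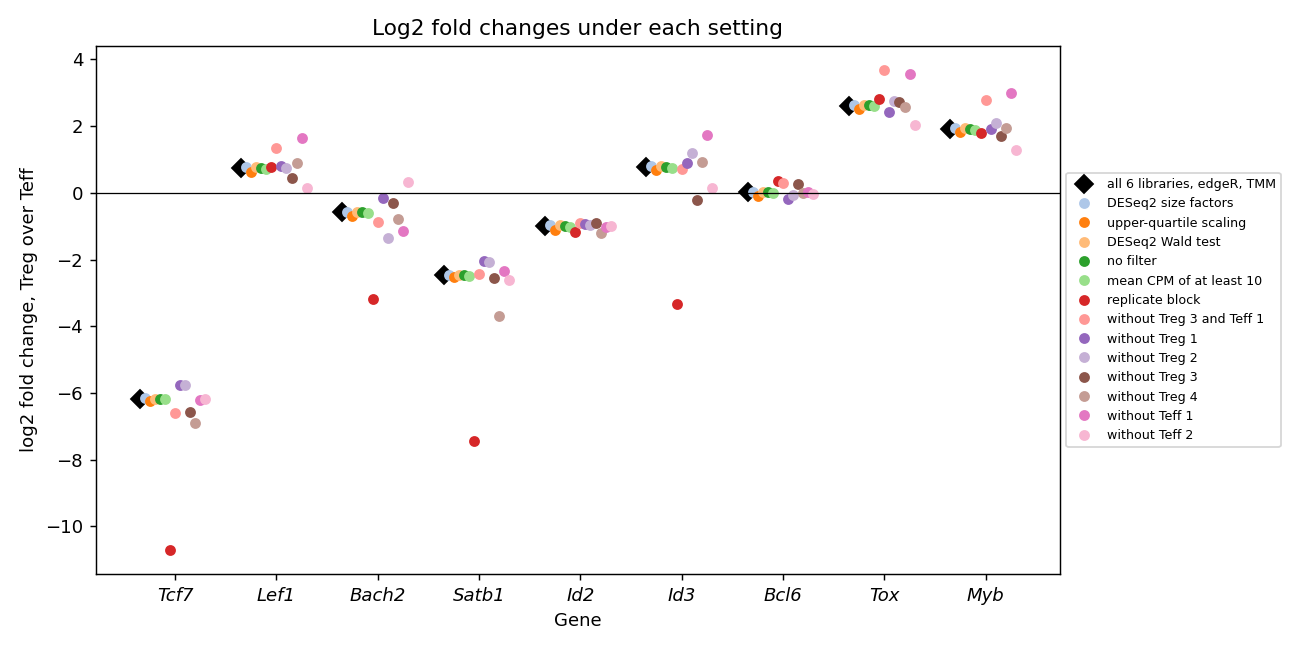
Log2 fold change, Treg over Teff, of the 9 genes with all 6 libraries (black diamonds) and under 13 other settings. Tcf7, Satb1 and Id2 stay below 0 and Tox, Myb and Lef1 above 0 in every setting, while Bach2, Id3 and Bcl6 lie on both sides.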

How the data were processed

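Members and gene lists were chosen with earlier results of these data known. Libraries were made from sorted cells by a SMARTer kit for very small RNA inputs, as the labels' protocols state. The submitters' processing notes list HTSeq 0.6.1, TopHat2 2.0.12, CASAVA 1.8.2, SAMtools 0.1.19.0 and Bowtie2 2.1.0.0, without roles, and the mm10 build. No source used here gives the annotation or strand setting. The authors deposited raw counts per gene, per the file headers, beside a log2 fold change, a mean log2 CPM, a p-value and a false discovery rate from their own comparison, whose test is not given. The 3 rows that name no gene (88.0% to 90.2% of the column totals) entered neither library sizes nor tests.

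The counts went through edgeR 4.0.16 (R 4.3.3): filterByExpr (smallest count 10, 11775 of 15106 genes kept), TMM scaling, glmQLFit and glmQLFTest with group as the sole term, fitted to all 6 libraries, Treg minus Teff, and Benjamini-Hochberg adjustment over all tested genes. The SE is the fold change over the square root of F, and the 95% interval uses the test's degrees of freedom. The biological coefficient of variation was 1.2. The smallest p that an exact permutation of 4 against 2 libraries allows is 0.0667, so this test, which pools spread over genes, was used. DESeq2 1.42.0 was an alternative. Lists are described by counts and medians. Floors (3 counts) cover counting error only. Named genes are the 9 members, Foxp3, the 6 genes most like Tcf7 and the 3 most like each other member, and the 3 of each list with the largest absolute log2 fold change at or above median expression (log2 CPM with a prior count of 2); genes added after their values were seen, among them paralogs and markers, are given as values. Alternatives were other scalings, filters and thresholds, a replicate block and libraries left out. Some list genes are not reported here.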

Additional observations from a re-analysis of the deposited data

Results flagged for a closer look

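Id2 in Treg 4, at 1392 CPM, lay far from the other Treg libraries, which were at 837, 884 and 783 CPM: the gap to its nearest neighbour was 0.834 of the range of the group, more than Dixon's 95% critical value for 4 samples allows. Such a gap arises by chance in about 1 in 20 groups, and 9 genes were examined. Treg 4 also had the highest CD8 marker sum among Tregs (65.6 CPM) and the highest myeloid and dendritic cell marker sum (588 CPM, against 150 to 190 CPM in the other Treg libraries and 297 and 219 CPM in Teffs). Their part in the level of Id2 was not tested.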

How the results depend on the processing

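The number of calls depended on the setting. Over all genes edgeR called 5, against 218 with DESeq2, 19 with no filter, 15 with the replicate block, 0 at an adjusted p of 0.01, 0 without Treg 3 and Teff 1 together, and 0 to 2 with 1 library left out. Of the 9 genes 0 were called, against 2 with DESeq2 and 1 with the replicate block, and 0 under every other alternative run. Tcf7 was past the threshold with DESeq2 (log2 fold change -6.17) and with the block (-10.72, adjusted p = 0.0212), and Tox with DESeq2 (2.64); over all 13 alternatives their adjusted p ran from 0.00063 to 1 and from 0.000313 to 1. The block takes Treg 3 and Treg 4 out of the comparison, since no Teff library shares their number, which leaves the pair of Treg libraries with 2 and 1 Tcf7 counts. Deviations of same-numbered libraries from their group means correlated at -0.0417 and 0.155 over tested genes. With 2 Teff libraries their deviations mirror each other, so this check can hardly detect pairing. The numbers are not shown to pair libraries. The block put Satb1 at -7.46 and Bach2 at -3.19. Settings that leave 1 Teff library take its spread from the Treg libraries.

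Signs turned for Bcl6 with upper-quartile scaling (-0.11) and a mean CPM of at least 10 (-0.017), and over single libraries left out it ran from -0.19 to 0.27; without Treg 3 and Teff 1 it was 0.30. Id3 turned with the block (-3.34) and ran from -0.23 to 1.73 over single libraries left out, and Bach2 from -1.36 to 0.31; the cause was not tested. Upper-quartile scaling put the median of all genes at -0.04, against 0.07 with TMM. The longest transcript of a gene is part of its merged exons, so with it as length the levels per kilobase could only rise. Tox in Tregs was then at 142, against 74.0, and Satb1 in Teffs at 5.13, against 1.68. Tcf7, Satb1, Bach2 and Id3 were at or under 3 counts in Treg 1, Treg 2 or both. Those libraries had the fewest genes with counts, 9602 and 9838, against 11074 to 13197 in the others. Their totals of gene counts, 6079194 and 6289509, were not the lowest. What part this played in the low values was not tested.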
